A study of Mus musculus with 26 samples.

Results

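Whole-brain nuclei were compared with whole-brain cytoplasm in 14 of the 26 sequencing libraries of a mouse brain study: the 12 libraries of unsorted nuclei, chosen by their sample titles, and the 2 libraries of cytoplasm. All mice were 6 to 12 weeks old, on a B6.FVB background, and carried a transgene for a fusion of enhanced green fluorescent protein (GFP) with the large-subunit ribosomal protein Rpl10a. The transgene was driven by Snap25, a gene of the synaptic vesicle fusion machinery, in neurons, by Aldh1L1, a folate enzyme gene, in astrocytes, or by Cnp, a myelin enzyme gene, in oligodendrocytes. The nuclei were taken before any sort and are labelled as mixed cells. They came from 4 mice of each of the 3 lines, 6 females and 6 males in all.

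Cytoplasm 1 is labelled as from a male of the Aldh1L1 line and cytoplasm 2 as from a female of the Cnp line. Both carry a cell type label, astrocyte and oligodendrocyte, beside the tissue label of whole brain, and no label gives the method of fractionation. No label says whether the cytoplasm came from the same mice as any nuclei. With only 2 cytoplasmic libraries, each cytoplasmic library is also set alone against the 12 nuclei. In that comparison its own spread is assumed to equal that of the nuclei. The titles of the nuclei share a prefix that the cytoplasmic titles lack. A preparation batch, if the prefix marks one, and the fraction cannot be told apart.

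The nuclei were shallow, with 147826 to 3274488 counts per library and a median of 260451, against 4461568 in cytoplasm 1 and 3885312 in cytoplasm 2. Levels are given as counts per 1000000 (CPM) of the tested genes' total in a library, scaled by the TMM composition factor of edgeR. A count of 3 corresponded to between 0.93 and 20.5 CPM in the nuclei and to 1.13 and 1.06 CPM in the cytoplasm, so a level of 0 in a nucleus library says less than a 0 in cytoplasm. Across 7728 tested genes, log2 levels of 2 nuclear libraries correlated with r between 0.71 and 0.89 over 66 pairs. The corresponding values were 0.69 for the cytoplasmic pair and 0.36 to 0.57 between nuclei and cytoplasm.

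Sex-linked RNAs were checked against the labels. The 4 Y-linked genes Ddx3y, Uty, Kdm5d and Eif2s3y together had 22 to 68 counts in each of the 6 libraries of male nuclei and at most 1 in each of the 6 of female nuclei. Cytoplasm 1, the library labelled male, had 1 such count, beside 1966 counts of the X-linked homologue Ddx3x and 1185 of Eif2s3x. Cytoplasm 2 had 2. The Y-linked counts of cytoplasm 1 therefore go against its label, and sex in the cytoplasm is taken as unsettled. The sex label of cytoplasm 1 enters only the alternatives that match libraries by line and sex or take them as covariates, and the subtraction of same-sex nuclei used for the genes that differ between the cytoplasmic libraries in the closing section.

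In a eukaryotic cell, RNA is transcribed and spliced in the nucleus, and mature messenger RNA (mRNA) is exported through nuclear pores to be translated on free or membrane-bound ribosomes. The nucleus keeps unspliced precursors, excised introns and many long noncoding RNAs (lncRNAs). The outer nuclear membrane is continuous with the rough endoplasmic reticulum (ER), which carries mRNAs of secreted and membrane proteins. In neurons much of the cytoplasm lies in dendrites and axons far from the nucleus, and mitochondria transcribe their own small genome inside the cytoplasm.

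Of 7728 tested genes, 1595 were higher and 2306 were lower in nuclei than in cytoplasm, which is 20.6% and 29.8% of the genes tested (edgeR's quasi-likelihood test, Benjamini-Hochberg adjusted p below 0.05). All log2 fold changes are nuclei over cytoplasm, so a negative value is a lower level in nuclei. The median over all tested genes was -0.10. In 1105 genes (14.3%) all 12 nuclei lay above both cytoplasmic libraries, and in 1377 (17.8%) all lay below.

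Set against cytoplasm 1 alone, 1933 genes were higher in nuclei (25%) and 2176 lower (28.2%). Against cytoplasm 2 alone the numbers were 1549 (20%) and 1967 (25.5%). The genes higher in both of these comparisons numbered 883 (11.4%) and those lower in both numbered 1092 (14.1%), while 140 genes (1.81%) passed in opposite directions. The comparisons share their nuclei. A gene was tested where at least 2 libraries of the 14 reached 38.04 CPM before scaling, so a gene high in one fraction could enter through it alone, and counts over tested members are descriptions. These counts depend on the composition factor: without it 63.0% of the calls were higher in nuclei, against 40.9% with it, since the median of all genes then moved by 0.55 on the log2 scale.

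**Figure D1:**
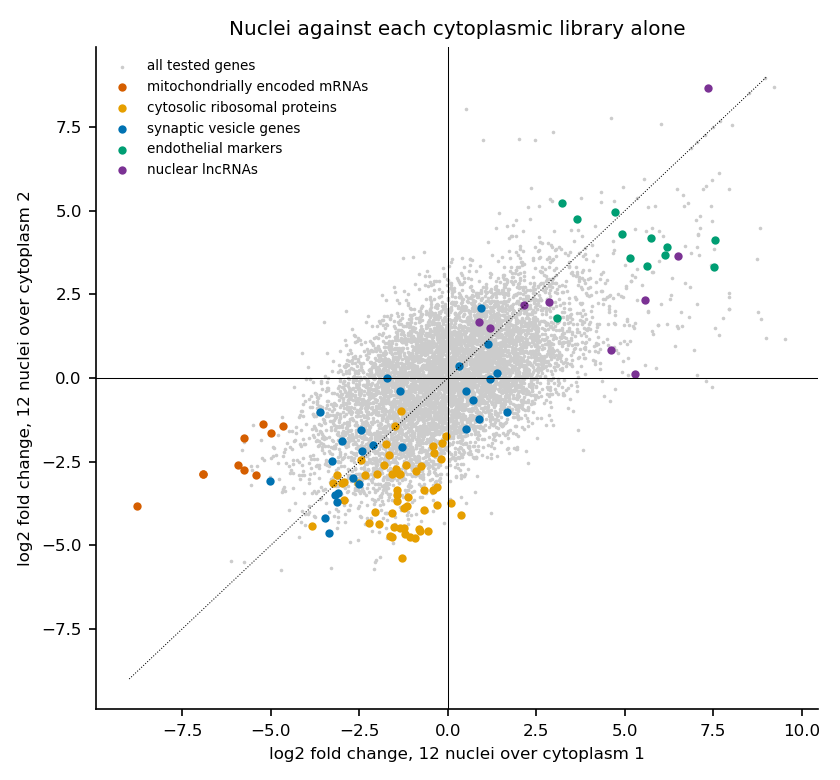
Each point is 1 of the 7728 tested genes, placed by its log2 fold change of the 12 nuclei over cytoplasm 1 (x axis) and over cytoplasm 2 (y axis), with 5 gene lists in colour and a dotted line where the values are equal. Mitochondrially encoded mRNAs lie off the dotted line on the side of larger falls against cytoplasm 1, most ribosomal protein mRNAs on that of larger falls against cytoplasm 2, and endothelial markers lie above 0 on both axes.

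The largest falls in nuclei, among genes whose groups did not overlap, were led by mitochondrial transcripts. mt-Nd2, a subunit of respiratory complex I encoded on the mitochondrial chromosome, had 0, 4.49 and 31.2 CPM as the lowest, median and highest value in nuclei, against 2748 and 91.5 in cytoplasm 1 and 2. All nuclei were below both cytoplasmic libraries, and the pair of cytoplasmic values was far apart. The log2 fold change was -7.78 ± 0.61, adjusted p = 8.6e-09, and -8.78 and -3.83 with each cytoplasmic library alone.

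Nuclear-encoded genes among the 10 largest falls included Ndufb6, another complex I subunit, at 0, 0 and 8.53 CPM (lowest, median, highest) in nuclei and 181 and 108 in the 2 cytoplasmic libraries (-5.88 ± 0.54, adjusted p = 4.8e-08). Ptges3, the Hsp90 co-chaperone p23, had 0, 13.2 and 55.6 CPM in nuclei and 900.1 and 105 in cytoplasm (-4.94 ± 0.55, adjusted p = 4.0e-07). Ppp1cb, a catalytic subunit of protein phosphatase 1, had 6.83, 24.8 and 59.9 and 1679 and 127 (-4.93 ± 0.46, adjusted p = 5.2e-08). For Ptges3 and Ppp1cb cytoplasm 1 was several times above cytoplasm 2, and the nuclei were below both. Fam166a also ranked here, at 166 and 132 CPM in cytoplasm and 0 in the median nuclear library. Its annotated body overlaps the tubulin gene Tubb4b, so its value is uncertain unless the counting used strand.

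The largest rises came from genes with almost no cytoplasmic counts. Grhl2, an epithelial transcription factor of chr15, had 6.83, 28.2 and 47.5 CPM in nuclei and 0 and 1 counts in the 2 cytoplasmic libraries (adjusted p = 7.7e-06). Lrtm1 had 14.1, 32.7 and 68.3 CPM in nuclei and 1 and 0 counts in cytoplasm, and Gpr171 had 3.46, 20.5 and 41 CPM and 0 and 1 counts. Both passed the test, with adjusted p = 2.1e-06 and 7.2e-05. Lrtm1 lies inside the calcium channel gene Cacna2d3 and Gpr171 inside Med12l, each on the opposite strand, and Slc26a1, also among the 10 largest, lies inside Idua on the opposite strand. The sources used here do not say whether strand was used in counting. If it was not, reads of these 3 and of their hosts' precursors cannot be told apart, so their values are uncertain. Of 159 tested genes lying wholly inside another gene on the opposite strand, 45 were higher and 36 lower (median 0.26), and of 60 inside one on the same strand 11 were higher and 18 lower (median -0.05). Of 5651 genes with no overlap 1149 were higher and 1745 lower (median -0.13).

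Shares of all counts summarise the groups. Mitochondrially encoded mRNAs made up 0.184% ± 0.103 (SD, n = 12) of the counts in nuclei, 5.89% in cytoplasm 1 and 0.517% in cytoplasm 2. The 85 genes of cytosolic ribosomal proteins made up 0.334% ± 0.0704 in nuclei, 0.583% in cytoplasm 1 and 3.03% in cytoplasm 2. For the 85 genes of the nuclear-encoded respiratory chain the shares were 0.307% ± 0.0508, 0.879% and 1.80%. All 12 nuclei were below both cytoplasmic libraries in each of these classes, and the 2 cytoplasmic libraries ranked in opposite order for the mitochondrial and the ribosomal protein mRNAs.

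Synaptic vesicle genes held 1.18% ± 0.107 of the counts in nuclei against 2.46% and 2.05% in cytoplasm 1 and 2. The reverse order held for genes whose body spans over 100 kb, with 30.5% ± 1.37 in nuclei against 25.8% and 19.5%, and for lncRNA biotypes, with 7.15% ± 1.44 against 1.42% and 2.33%. Endothelial markers held 0.0733% ± 0.0557 against 0.00287% and 0.00602%. Each of the 7 classes gave p = 0.022 in an exact two-sided permutation test over the 91 assignments of libraries, and 0.022 after adjustment over the 7 classes. This is the smallest value the design allows. The comparison and its lists were chosen with earlier results of these data known, so these p-values add no independent support. In lncRNAs 1 nuclear library of a male of the Cnp line, replicate 9, stood at 11.3%, above the others.

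**Figure D2:**
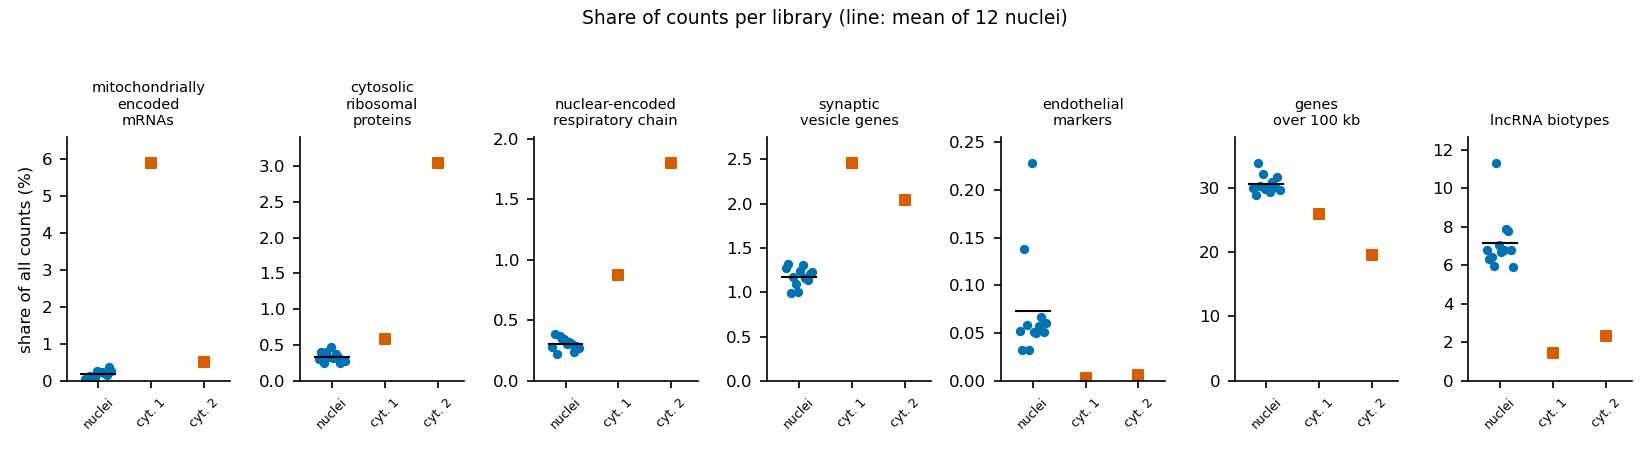
Share of all counts per library in percent (y axes, each from 0) for 7 gene classes in the 12 nuclei, with their mean as a line, and in the 2 cytoplasmic libraries. The nuclei sit below both cytoplasmic libraries for the first 4 classes and above both for the last 3, and the 2 cytoplasmic libraries are 5.89% and 0.517% for mitochondrial mRNAs and 0.583% and 3.03% for ribosomal proteins.

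Among lncRNAs known from the nucleus, 7 of 9 tested were higher in nuclei and none was lower, 6 of the 9 meeting the count minimum only through the nuclei, with a median log2 fold change of 2.18 (4.61 and 2.17 with cytoplasm 1 and 2 alone). Over all 98 tested lncRNA genes 58 were higher and 14 lower, with a median of 1.56. Malat1, the nuclear speckle RNA (chr19:5795690-5802672, minus strand), had 25411, 38544 and 95715 CPM as the lowest, median and highest value in nuclei. Its level was 9802 and 9254 CPM in cytoplasm 1 and 2. The nuclei lay above both and the 2 cytoplasmic libraries were close to each other. The log2 fold change was 2.18 ± 0.39, adjusted p = 9.6e-05.

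Neat1, the scaffold of paraspeckles, had 259.8, 392 and 538 CPM in nuclei and 54.4 and 79.8 in cytoplasm (2.57 ± 0.37, adjusted p = 7.9e-06). Snhg11, a host of small nucleolar RNAs, had 1708, 2661 and 4194 and 59.6 and 539 (3.24 ± 0.58, adjusted p = 1.1e-04). The groups did not overlap for either RNA. Meg3, an imprinted lncRNA of chr12, had 4094, 6507 and 9371 CPM in nuclei, 269 in cytoplasm 1 and 3567 in cytoplasm 2 (1.78 ± 0.55, adjusted p = 0.01). The size for Meg3 depended on the cytoplasmic library, with 4.61 against cytoplasm 1 and 0.83 against cytoplasm 2, where it did not pass (adjusted p = 0.067).

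Xist, the RNA that coats the inactive X chromosome, was present at 4645 to 7455 CPM in the 6 libraries of female nuclei and 3.21 to 38.1 in the 6 of males. Cytoplasm 1 had 19.9 CPM and cytoplasm 2, labelled female, 7.42. Over all 12 nuclei the log2 fold change was 7.88 ± 2.95, adjusted p = 0.031, and it did not pass against either cytoplasmic library alone. With the nuclei of males alone it was -0.12 and did not pass.

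MicroRNA host transcripts among the lncRNAs were almost all higher in nuclei. A microRNA (miRNA) is cut from a hairpin in a longer primary transcript by Drosha in the nucleus, and its seed, bases 2 to 8, pairs with target mRNAs in the cytoplasm. Of 14 tested lncRNA genes that contain an annotated mature miRNA on their own strand, 13 were higher in nuclei, 10 of them against each cytoplasmic library alone, and none was lower. Of the 14, 11 met the count minimum only through the nuclei. The median was 2.67, and 4.41 and 2.46 with cytoplasm 1 and 2 alone. Of 358 protein-coding genes that contain a miRNA, 65 were higher and 90 lower, with a median of 0.00. Over all tested genes 20.6% were higher and 29.8% lower. Of the 358, 192 met the count minimum only through the nuclei. The host set was found by position after the levels had been seen, and the host transcripts were measured here, not the miRNAs.

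The mature miRNAs that the hosts described next contain are shown to identify them and to group them by seed, which is in capitals. The sequences are 5′ to 3′ from RefSeq on GRCm38.p6.
mmu-miR-9-5p: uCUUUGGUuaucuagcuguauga
mmu-let-7c-5p: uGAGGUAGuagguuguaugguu
mmu-miR-125b-5p: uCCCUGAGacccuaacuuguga
mmu-miR-99a-5p: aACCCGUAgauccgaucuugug
mmu-miR-100-5p: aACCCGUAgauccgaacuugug
mmu-miR-29b-3p: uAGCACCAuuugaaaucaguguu
mmu-miR-29c-3p: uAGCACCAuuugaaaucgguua
mmu-miR-15a-5p: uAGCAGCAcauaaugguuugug
mmu-miR-16-5p: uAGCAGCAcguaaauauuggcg
The pairs miR-99a and miR-100, miR-29b and miR-29c, and miR-15a and miR-16 share their seeds.

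Mir99ahg (chr16:77236317-77773427, plus strand) holds let-7c at chr16:77599672-77599693, miR-99a at chr16:77598940-77598961 and a copy of miR-125b at chr16:77646279-77646300. It had 113, 196 and 285 CPM in nuclei, and 10 and 15 counts, or 3.75 and 5.3 CPM, in the 2 cytoplasmic libraries. Every nuclear library was above 100 CPM and both cytoplasmic ones below 10. The log2 fold change was 5.40 ± 0.52, adjusted p = 6.6e-08, and 5.65 and 5.13 with each cytoplasmic library alone. The joint value was among the 10 largest rises of the ranking that leaves out Gm and Rik names, pseudogenes and near-identical families. The related host 3110039I08Rik (chr9:41327077-41716994, plus strand), with miR-100 and the other copy of miR-125b, had 144, 227 and 366 CPM in nuclei against 117 and 36.4 (1.53 ± 0.42, adjusted p = 0.0045). There the groups were separate too, with a smaller gap to cytoplasm 1, against which alone it did not pass (0.92).

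miR-9-5p, a miRNA of neural progenitors and neurons, is identical at its 3 loci, and each host was tested. Gm3764 (chr3, plus strand) had 321, 491 and 817 CPM in nuclei against 6.38 and 95.4 (3.32 ± 0.65, adjusted p = 2.6e-04). C130071C03Rik (chr13) had 177, 244 and 445 against 123 and 79.8 (1.45 ± 0.36, adjusted p = 0.0023). Both hosts were higher in nuclei than in each cytoplasmic library alone. Mir9-3hg (chr7) had 30.7, 57.4 and 129.9 CPM against 25.1 and 72.8 (0.46 ± 0.46, adjusted p = 0.42), so it did not pass and cytoplasm 2 lay within the range of the nuclei.

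A330023F24Rik (chr1), the host of miR-29b and miR-29c, had 169, 287 and 415 CPM in nuclei against 3.38 and 34.6 (3.89 ± 0.60, adjusted p = 2.0e-05). Dleu2 (chr14), the host of miR-15a and miR-16, had 34.1, 84.5 and 138 against 13.5 and 6.36 (3.04 ± 0.52, adjusted p = 6.3e-05). Both were separate from the cytoplasm in every nuclear library. Mirg, at the imprinted locus of chr12 near Meg3, had 459, 708 and 1475 CPM against 7.88 and 56.9 (4.49 ± 0.62, adjusted p = 5.4e-06). Mir124a-1hg, named for the neuronal miR-124, had 611, 859 and 1354 against 23.3 and 307 (2.44 ± 0.60, adjusted p = 0.0019). For Mirg and Mir124a-1hg cytoplasm 2 was several times above cytoplasm 1.

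Transcripts of splicing factor genes are known for introns that are kept in the nucleus. Of 33 tested genes of splicing factors and their kinases, 16 (48.5%) were higher in nuclei and 4 (12.1%) lower, beside 20.6% and 29.8% of all genes. The median was 0.83 against -0.10 over all genes. Ccnl1, a cyclin of the splicing machinery, had 51.2, 73.5 and 143 CPM in nuclei and 8.25 and 12.7 in cytoplasm (2.90 ± 0.44, adjusted p = 1.5e-05). The kinase gene Clk1, which phosphorylates SR splicing proteins, had 61.5, 113 and 153 and 26.6 and 6.71 (2.72 ± 0.48, adjusted p = 7.9e-05). Ccnl2 (2.51), Pnisr (2.35) and the speckle protein genes Srrm2 (1.73) and Son (1.42) were also higher. Son did not pass against cytoplasm 1 alone (0.79, adjusted p = 0.09). Of the 33 genes 15 met the count minimum only through the nuclei. Without the composition factor 19 were higher and none lower. The 4 lower genes, Srsf7, Luc7l2, Srsf3 and Srsf5, were lower against cytoplasm 1 and did not pass against cytoplasm 2: Srsf7 was -2.57 against cytoplasm 1 and 0.37 against cytoplasm 2, and Luc7l2 -2.17 and 0.13.

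Chromatin regulators showed 16 of 36 (44.4%) higher and 5 (13.9%) lower. The median was 0.62, and 0.50 and 0.56 with cytoplasm 1 and 2 alone. Of the 36, 12 met the count minimum only through the nuclei. Kmt2a, a histone H3 lysine methyltransferase (chr9:44803355-44881296, minus strand), had 661, 863 and 1059.8 CPM in nuclei and 64.9 and 215 in cytoplasm (2.62 ± 0.38, adjusted p = 8.9e-06). The nuclei spanned a narrow range above both cytoplasmic libraries. Its relative Kmt2c (2.17), the DNA demethylation enzyme gene Tet2 (2.17) and the remodeller Chd8 (2.05) were likewise higher. Chd3, a subunit of the NuRD complex, went the other way, with 57.5, 98.1 and 154 CPM in nuclei and 298 and 728 in cytoplasm (-2.42 ± 0.29, adjusted p = 9.3e-07). Of 158 zinc finger protein genes 28 were higher and 15 lower (55 and 6 without the composition factor), close to or below the 20.6% and 29.8% of all genes. Their median was 0.13 against cytoplasm 1 alone and 1.05 against cytoplasm 2 alone. Of the 158, 125 met the count minimum only through the nuclei. Zfp521 (2.37) and Zfp365 (-2.91) were examples of each.

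Long neuronal genes were mixed. Of 34 tested synaptic and adhesion genes of great length, 13 (38.2%) were higher, 5 (14.7%) lower and 16 did not pass. Over all genes 20.6% were higher and 29.8% lower. The median of the list was 0.37, and 0.16 and 1.02 with cytoplasm 1 and 2 alone. Of the 34, 12 met the count minimum only through the nuclei. Csmd3 had 218, 444 and 775 CPM in nuclei and 58.5 and 32.5 in cytoplasm (3.49 ± 0.47, adjusted p = 3.4e-06). Lrp1b (2.90), the protocadherin gene Pcdh9 (2.73) and the receptor phosphatase gene Ptprd (2.44) were higher by similar amounts. Rbfox1, a neuronal splicing factor whose gene is among the longest, was lower, with 47, 73.5 and 116 CPM in nuclei and 577 and 227 in cytoplasm (-2.41 ± 0.31, adjusted p = 2.5e-06). The potassium channel partner Kcnip4 was lower too (-2.16), with -2.87 against cytoplasm 1, and did not pass against cytoplasm 2 (-0.75).

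Over all genes the direction went with transcript size. Of 489 genes with under 2 kb of exons 49 were higher and 316 lower in nuclei (median -2.06), and of 1232 genes over 10 kb 409 were higher and 204 lower (median 0.36). By the length of the whole gene, the median went from -1.30 under 5 kb (573 genes) to 0.30 over 300 kb (401 genes). That span was -0.42 to 0.19 against cytoplasm 1 and -1.66 to 0.55 against cytoplasm 2, and rho with gene length was 0.02 and 0.30. Genes with a single exon had a median of -1.58 and those with over 15 exons 0.36. The relation to summed exon length was weaker with cytoplasm 1, with Spearman's rho across 7650 genes of 0.08 against cytoplasm 1 and 0.39 against cytoplasm 2. The sources used here do not say whether reads in introns were counted. Genes are not independent replicates, and these values describe the libraries.

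Most tested mRNAs of the respiratory chain and of cytosolic ribosomes, glycolysis and protein turnover were lower in nuclei. All 10 tested mitochondrially encoded mRNAs were lower, 9 of them against each cytoplasmic library, with a median of -4.88 (-5.75 and -2.66 with cytoplasm 1 and 2). Of the 10, 2 met the count minimum only through the cytoplasm. mt-Co1, the catalytic subunit of cytochrome oxidase, had 183, 748 and 1823 CPM in nuclei and 41707 and 2589 in cytoplasm 1 and 2 (-4.84 ± 0.56, adjusted p = 6.5e-07). mt-Cytb of complex III had 64.1, 223 and 601 and 10129.8 and 678 (-4.33 ± 0.53, adjusted p = 1.2e-06). For both genes the nuclei stayed below each cytoplasmic library, with cytoplasm 2 much nearer to them. Against cytoplasm 2 alone mt-Cytb did not pass (-1.39, adjusted p = 0.055).

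Of 85 cytosolic ribosomal protein genes 55 were tested, 5 of them entering only through the cytoplasm, and all 55 were lower in nuclei, 32 against each cytoplasmic library alone, with a median of -2.86 (-1.35 and -3.36). Here the background was 29.8% lower. Rpl41 had 115, 229.6 and 576 CPM in nuclei, 825 in cytoplasm 1 and 7162 in cytoplasm 2 (-3.85 ± 0.44, adjusted p = 5.7e-07). Rpl38, whose ribosomes favour certain mRNAs in development, had 0, 14.6 and 37.6 and 233 and 338 (-4.14 ± 0.42, adjusted p = 1.1e-07). Rps29 (-4.41) and Rplp1 (-3.84) were among the largest, and Rplp1 passed against cytoplasm 2 (-4.78) but not cytoplasm 1 (-0.94, adjusted p = 0.067). These genes have many processed pseudogenes, so the counting may have split their reads, and 16 of 22 tested processed pseudogenes were lower as well.

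The nuclear-encoded respiratory chain had 85 genes in the table and 59 tested, 17 of them entering only through the cytoplasm. Of the 59, 58 were lower, 46 against each cytoplasmic library (median -2.84). Cox6c of cytochrome oxidase had 6.83, 22.2 and 75.1 CPM in nuclei and 329 and 409 in cytoplasm (-3.95 ± 0.40, adjusted p = 1.2e-07), with cytoplasmic values close together. Atp5b, the catalytic subunit of ATP synthase, had 198, 423 and 554 and 1694 and 1344 (-1.90 ± 0.25, adjusted p = 2.7e-06). Of 21 tested mitochondrial ribosomal protein genes 8 (38.1%) were lower, beside 29.8% of all genes, and none was higher, and the median was -0.78, or -0.17 without the composition factor.

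Glycolytic enzymes were lower in 15 of 16 cases (median -2.22), 14 against each cytoplasmic library. Aldoa, muscle-type aldolase, had 178, 297 and 481 CPM in nuclei and 1341 and 4139 in cytoplasm (-3.13 ± 0.30, adjusted p = 6.6e-08), and triosephosphate isomerase, Tpi1, 19.8, 50.3 and 68.3 and 300.02 and 460.2 (-2.95 ± 0.29, adjusted p = 8.2e-08). Cytosolic chaperones and ubiquitin genes were lower in 24 of 25 cases (median -2.11), 3 of the 25 meeting the count minimum only through the cytoplasm. Ubb, a polyubiquitin gene, had 144, 527 and 763 CPM against 3945 and 6579 (-3.32 ± 0.31, adjusted p = 4.9e-08). Hsp90aa1 had 108, 254 and 396 against 3945 and 374 (-3.16 ± 0.44, adjusted p = 5.3e-06), and cytoplasm 2 lay within the nuclear range. Against cytoplasm 2 alone it did not pass (-0.67).

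Proteasome subunits were lower in 17 of 18 cases (median -1.64), with Psmb5, a catalytic subunit, at -2.66, and in 8 without the composition factor. Of the 18, 3 met the count minimum only through the nuclei and 3 only through the cytoplasm. Translation factors were lower in 25 of 31 (median -1.86), with 3 of the 31 meeting the minimum only through the nuclei and 3 only through the cytoplasm. The growth-related Tpt1 had 6.93, 56 and 79.1 CPM in nuclei and 765 and 390.0 in cytoplasm (-3.53 ± 0.37, adjusted p = 1.8e-07). The cap-binding factor Eif4e was lower against cytoplasm 1 (-3.67) and did not pass against cytoplasm 2 (-0.60, adjusted p = 0.32). Eif4g3, a long scaffold gene, had 359, 555 and 841 CPM in nuclei and 603 and 605 in cytoplasm and did not pass (-0.09 ± 0.29, adjusted p = 0.8).

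**Figure D3:**
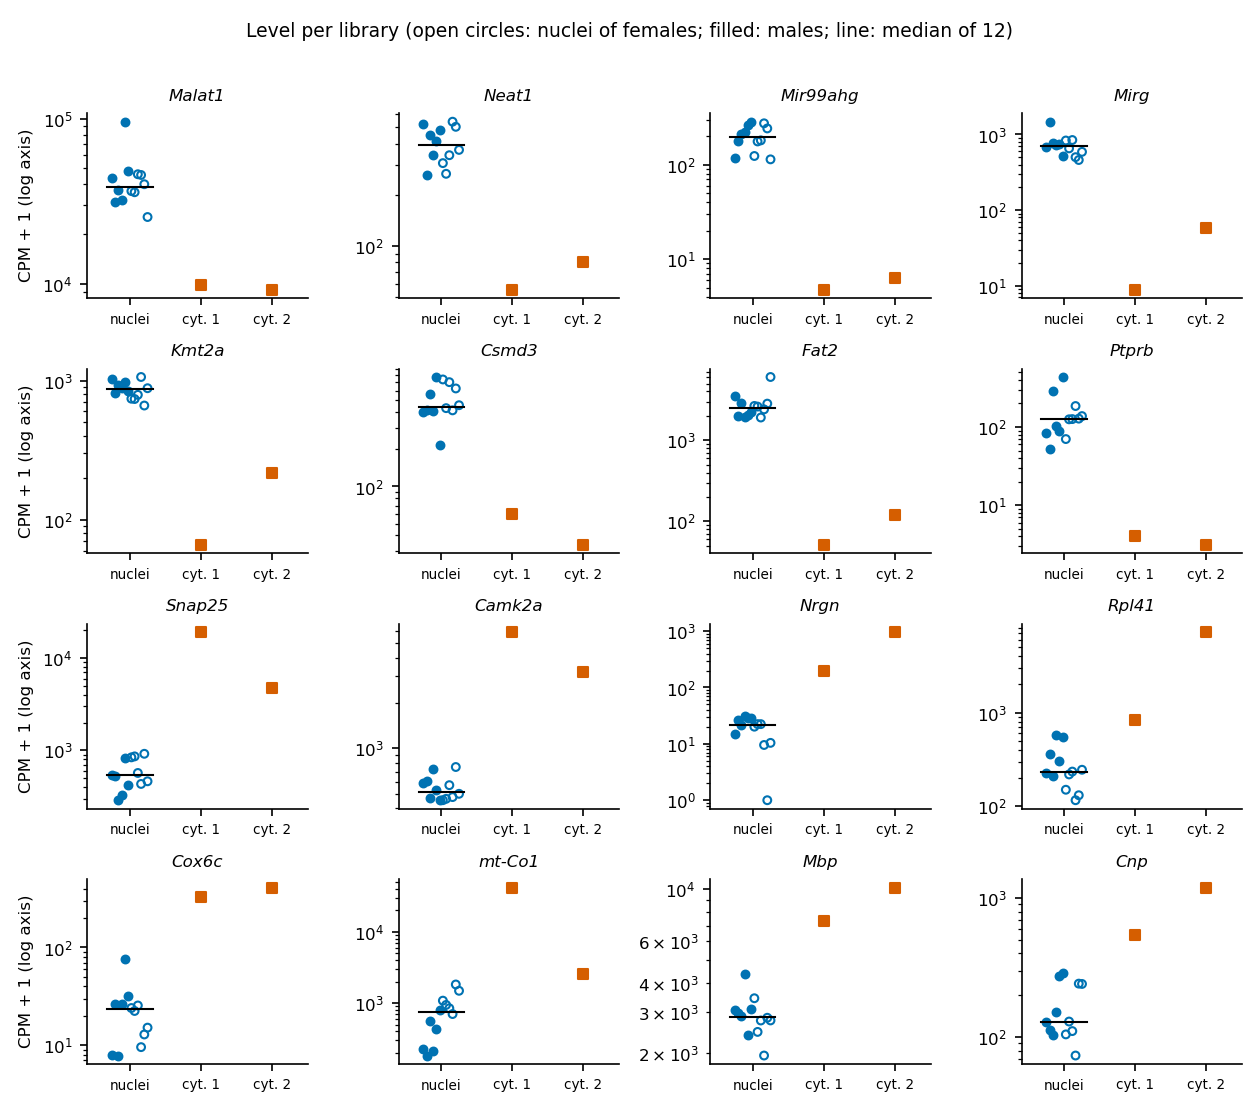
Level of 16 genes in each library, as CPM plus 1 on a log axis that differs between panels, with 12 nuclei as circles (open for females, filled for males), their median as a line and the 2 cytoplasmic libraries as squares. The nuclei are above both squares in the first 8 panels, from Malat1 to Ptprb, and below both in the other 8, from Snap25 to Cnp.

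Many neuronal mRNAs of the synapse and of the cell's processes were lower in nuclei. Snap25, the driver of 1 of the 3 lines and a t-SNARE (chr2:136713453-136782428, plus strand), had 287, 535 and 918 CPM in nuclei, 19095 in cytoplasm 1 and 4799 in cytoplasm 2. The nuclei lay below both, and the log2 fold change was -4.35 ± 0.33, adjusted p = 5.6e-09. Cplx1, a complexin that clamps fusion, had 13.7, 62.4 and 115 and 748 and 1184 (-3.85 ± 0.31, adjusted p = 1.0e-08). Of 27 tested synaptic vesicle genes 17 were lower, 2 higher and 8 did not pass (median -2.03).

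The 2 exceptions were Pclo, the giant active zone scaffold, with 1103, 1617 and 1891 CPM in nuclei and 837 and 363 in cytoplasm (1.41 ± 0.31, adjusted p = 8.6e-04), and Sv2b, a vesicle membrane protein, with 342, 482 and 664 and 222 and 232 (1.10 ± 0.29, adjusted p = 0.0032). Syt1, the calcium sensor of release, had 971, 1716 and 2147 CPM and 1316 and 1253 and did not pass (0.36 ± 0.28, adjusted p = 0.29). Vesicle genes were therefore found on both sides.

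Of 24 mRNAs known from dendrites 17 were lower and 1 higher (median -1.87). Nrgn, a calmodulin-binding protein of spines, had 0, 20.9 and 29.9 CPM in nuclei and 192 and 952 in cytoplasm (-4.90 ± 0.41, adjusted p = 1.7e-08). Camk2a, the kinase whose mRNA is transported into dendrites, had 452, 514 and 751 and 5888 and 3212 (-3.05 ± 0.22, adjusted p = 4.8e-09). Its inhibitor gene Camk2n1 (-3.57) and the calmodulin gene Calm3 (-3.88) fell alongside. Lrrc7, a densin of the postsynaptic density, was the exception, at 94.1, 215 and 481 CPM in nuclei and 89.6 and 71.7 in cytoplasm (1.54 ± 0.43, adjusted p = 0.0052).

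Cytoskeleton genes were lower in 28 of 30 cases (median -2.47). The dynein light chain Dynll2 had 0, 31.6 and 64.1 CPM in nuclei and 674 and 940.3 in cytoplasm (-4.48 ± 0.38, adjusted p = 1.7e-08). Nefl, the light neurofilament, had 34.6, 59.8 and 107 and 1153 and 497 (-3.71 ± 0.28, adjusted p = 5.6e-09). Map2, the dendritic microtubule protein, was lower in the joint fit but not against cytoplasm 2: it had 988, 1545 and 2709.6 CPM in nuclei, 7586 in cytoplasm 1 and 1319 in cytoplasm 2, giving -2.24 and 0.24 with each alone.

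Genes of the ER itself, whose mRNAs are translated largely on ER-bound ribosomes, were found on both sides. Of 26 ER chaperone and translocon genes 6 (23.1%) were higher and 5 (19.2%) lower, near or below the shares of all genes (10 and 2 genes without the composition factor), with a median of 0.23. Of the 26, 15 met the count minimum only through the nuclei. Sec61a2, a translocon channel subunit, had 58.5, 83.9 and 172 CPM in nuclei and 21.8 and 23 in cytoplasm (2.12 ± 0.43, adjusted p = 3.4e-04), and P4hb, a protein disulfide isomerase, 103, 154 and 194 and 25.1 and 88.3 (1.39 ± 0.38, adjusted p = 0.0046). P4hb did not pass against cytoplasm 2 alone (0.71, adjusted p = 0.1). The abundant chaperones Hspa5 (0.89, adjusted p = 0.09) and Hsp90b1 (0.71, adjusted p = 0.19) did not pass. Their values lay above 0, while the cytosolic chaperones had a median of -2.11. No cytosolic chaperone or ubiquitin gene met the minimum only through the nuclei and 3 did only through the cytoplasm. The contrast of the 2 lists was therefore partly set by the filter. Srp9 (-2.51) and Srp14 (-2.30), proteins of the signal recognition particle that work in the cytosol, were among the 5 lower genes.

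Genes of secreted and endomembrane proteins gave 3 higher, 2 lower and 29 not passing of 34 (median 0.16, but 1.08 and -0.25 with cytoplasm 1 and 2). Without the composition factor 13 were higher and none lower. Of the 34, 8 met the count minimum only through the nuclei. Aplp2, an amyloid precursor-like protein, had 507, 597 and 974 CPM in nuclei and 225 and 304 in cytoplasm (1.32 ± 0.30, adjusted p = 9.6e-04). The protease genes Ctsl (0.96) and Pcsk2 (0.66) were the other higher ones, and neither passed against cytoplasm 2 alone (0.74 and 0.50). Chga, a granin of dense core vesicles, was lower (-1.35) through cytoplasm 2 (-2.26), and 1.21 against cytoplasm 1.

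**Figure D4:**
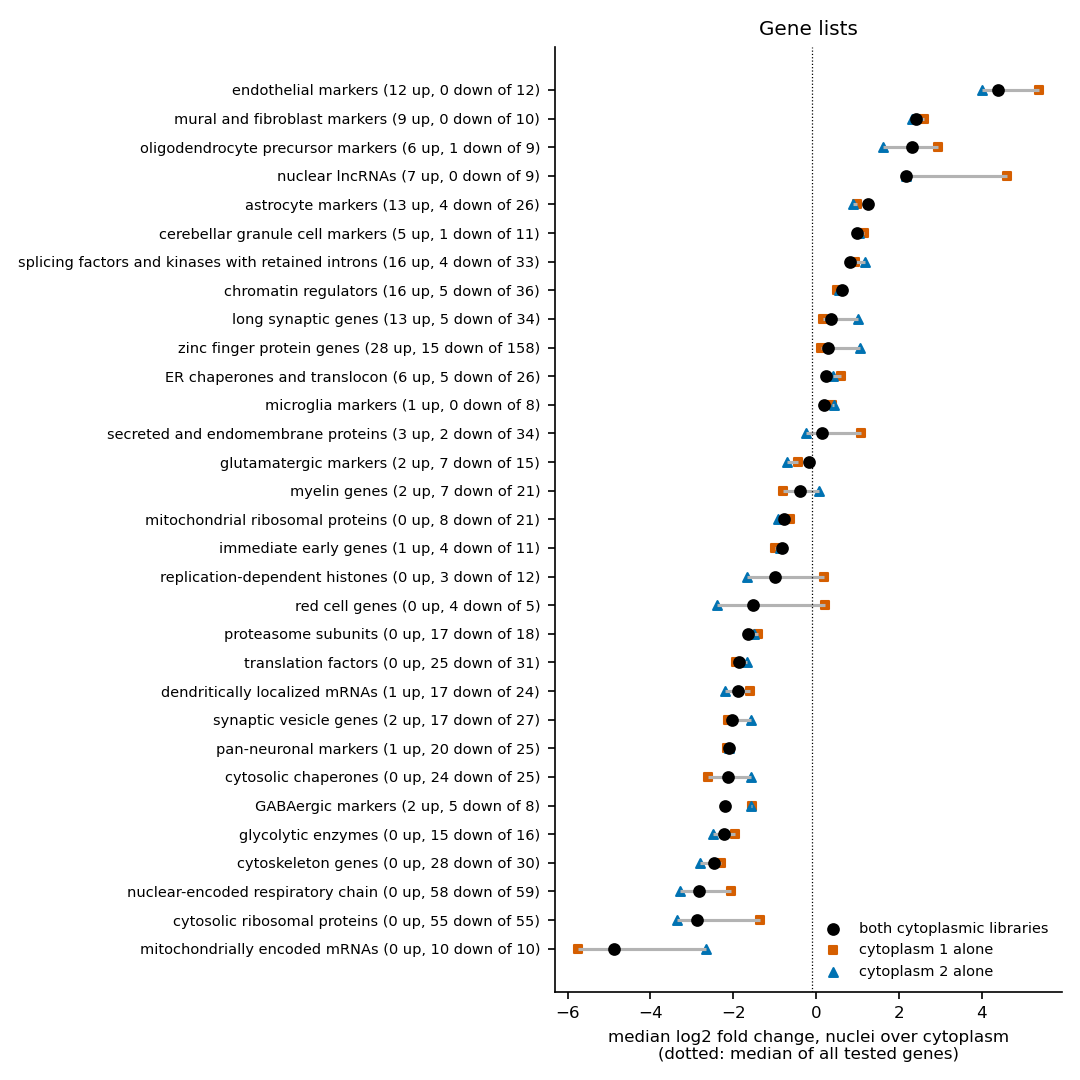
Median log2 fold change of nuclei over cytoplasm (x axis) for 31 gene lists with at least 5 tested genes, against both cytoplasmic libraries (circles) and each alone (squares and triangles), with the counts higher and lower in brackets. Lists run from mitochondrially encoded mRNAs at -4.88 to endothelial markers at 4.41. The 2 cytoplasmic libraries are far apart for mitochondrially encoded mRNAs (-5.75 and -2.66), and also for red cell genes, nuclear lncRNAs and ribosomal proteins.

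Markers of cell types moved with the fraction, and their part in the results above was not tested. Of 16 endothelial markers 12 were tested, and all 12 met the count minimum only through the nuclei, so a higher level in nuclei was partly set by the filter. All 12 were higher, 10 against each cytoplasmic library, with a median of 4.41. It was 5.39 against cytoplasm 1, or 4.96 with the 3 genes at 0 counts there set to a floor of 3 counts, and 4.01 against cytoplasm 2. Their summed share was 0.032% to 0.228% of counts in nuclei and 0.00287% and 0.00602% in cytoplasm. Ptprb, the vascular endothelial phosphatase, had 51.3, 124 and 433 CPM in nuclei and 8 and 6 counts in cytoplasm (5.78 ± 0.83, adjusted p = 7.8e-06). Flt1, a receptor for vascular growth factor, had 19.2, 48.8 and 249 CPM and 7 and 6 counts (4.90 ± 0.95, adjusted p = 2.3e-04).

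Pecam1, an endothelial adhesion molecule, had 13.7, 76.5 and 327 CPM in nuclei and 1.13 and 6 in cytoplasm (4.69 ± 0.97, adjusted p = 4.4e-04). The nuclei varied widely in these genes, and every nuclear value of Ptprb, Flt1 and Pecam1 was above both cytoplasmic libraries. Of 10 tested markers of mural cells and fibroblasts 9 met the minimum only through the nuclei and 9 were higher (median 2.42). Pdgfrb of pericytes had 25.7, 72.5 and 156 CPM and 5.25 and 10.6 (3.32 ± 0.60, adjusted p = 1.1e-04), and the smooth muscle myosin Myh11 had 0 and 2 counts in the 2 cytoplasmic libraries against a median of 38.1 CPM in nuclei. Fewer such cells in the cytoplasmic fraction and less cytoplasmic RNA per cell cannot be told apart in bulk samples.

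Oligodendrocyte precursor markers were higher in 6 of 9 cases (66.7%) and lower in 1 (11.1%), beside 20.6% and 29.8% of all genes. Of the 9, 7 met the count minimum only through the nuclei, so a higher level was partly set by the filter. Pdgfra, the growth factor receptor that defines them, had 82, 111 and 146 CPM in nuclei and 6.75 and 13.4 in cytoplasm (3.41 ± 0.39, adjusted p = 5.8e-07), and the matrix gene Vcan 212, 279.9 and 396 and 28.9 and 38.1 (3.13 ± 0.35, adjusted p = 3.7e-07). The transcription factor gene Olig1, with a single short exon, was lower (-1.84). Of 11 cerebellar granule cell markers 5 (45.5%) were higher and 1 (9.09%) lower, and 6 of the 11 met the minimum only through the nuclei. Fat2, a giant cadherin, had 1906, 2501 and 6023 CPM in nuclei against 50.3 and 117 (5.03 ± 0.54, adjusted p = 2.5e-07), and Cbln3, a secreted synapse organizer, 802, 2247 and 4381 against 176 and 260.3 (3.48 ± 0.52, adjusted p = 1.3e-05).

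Astrocyte markers had 13 of 26 higher (50%) and 4 lower (15.4%), beside 20.6% and 29.8% of all genes. Against each cytoplasmic library alone, 5 were higher and 3 lower. Of the 26, 17 met the count minimum only through the nuclei, so a higher level was partly set by the filter. Gpc5, a long glypican gene, had 23.7, 53.2 and 164 CPM in nuclei and 5.63 and 8.12 in cytoplasm (3.07 ± 0.62, adjusted p = 3.4e-04). Glutamine synthetase, Glul, went the other way at 210.4, 247 and 401 and 2327 and 1001 (-2.66 ± 0.25, adjusted p = 5.2e-08), as did the astrocyte aldolase Aldoc (-2.67). Itih3, a secreted inhibitor, was higher (2.99), and the glutamate transporter Slc1a2 did not pass (0.39 ± 0.33, adjusted p = 0.33). Markers of the same cell type fell on both sides.

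The same was seen in oligodendrocytes and neurons. Of 21 myelin genes 7 (33.3%) were lower and 2 (9.52%) higher, beside 29.8% and 20.6% of all genes. Their median of -0.38 turned to 0.11 without the composition factor. Mbp, whose mRNA is carried into myelin, had 1957, 2867 and 4354 CPM in nuclei and 7359 and 10177 in cytoplasm (-1.59 ± 0.23, adjusted p = 7.7e-06). Cnp, the driver of another line, had 72.6, 128 and 288 and 538 and 1188 (-2.41 ± 0.36, adjusted p = 1.3e-05). Cntn2 (1.82) and the secreted lipid carrier Apod (1.16) were higher. Apod did not pass against cytoplasm 2 alone (0.71, adjusted p = 0.11).

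Among neuronal lists, 20 of 25 pan-neuronal markers (80%) were lower and 1 (4%), Snhg11, was higher, beside 29.8% and 20.6% of all genes. For GABAergic markers 5 of 8 (62.5%) were lower and 2 (25%) higher. Of the 8, 3 met the count minimum only through the nuclei and 2 only through the cytoplasm. Pvalb, a calcium buffer of fast-spiking cells, had 0, 14.1 and 51.2 CPM in nuclei and 166 and 399.8 in cytoplasm (-4.10 ± 0.47, adjusted p = 6.2e-07), and the large secreted protein gene Reln 289, 397 and 574 and 43.1 and 57.6 (3.02 ± 0.36, adjusted p = 8.1e-07). Immediate early genes had 4 of 11 (36.4%) lower and 1 (9.09%) higher, beside 29.8% and 20.6% of all genes. Egr1 had 68.3, 121 and 261 CPM in nuclei and 741 and 912 in cytoplasm (-2.52 ± 0.32, adjusted p = 1.7e-06), while Btg2 was higher (2.21 ± 0.54, adjusted p = 0.0018). Among microglial markers 1 of 8 (12.5%) was higher, Siglech (2.44), and none was lower, beside 20.6% and 29.8% of all genes. Of these 8, 6 met the count minimum only through the nuclei.

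The transgene was read by the entry for GFP. It had 59.3, 106 and 281 CPM in nuclei and 92.3 and 320.0 in cytoplasm 1 and 2, and did not pass (-0.62 ± 0.47, adjusted p = 0.29). Against cytoplasm 1 and 2 alone the GFP entry was 0.54 and -1.30. The nuclei pool 3 driver lines, while cytoplasm 1 is labelled Aldh1L1 and cytoplasm 2 Cnp, so these values mix driver line with fraction. Rpl10a, the fusion partner, was lower (-1.08 ± 0.41, adjusted p = 0.034), through cytoplasm 2 (-1.72) and not cytoplasm 1 (-0.05). The sources used here do not say whether reads of the fusion were counted to Rpl10a. The driver gene Aldh1l1 had 3.21, 17.9 and 54.7 CPM in nuclei and 18 and 22.3 in cytoplasm and did not pass (adjusted p = 1).

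The 2 cytoplasmic libraries differed from each other in 1205 genes higher in cytoplasm 1 (15.6%) and 1083 higher in cytoplasm 2 (14%), with the spread taken from the nuclei. Map2 was 2.52 ± 0.53 higher on the log2 scale in cytoplasm 1, and Grin1, the obligatory subunit of NMDA receptors, was -3.41 ± 0.65 relative to cytoplasm 2. Plagl1, an imprinted zinc finger gene, had 541 CPM in cytoplasm 1 and 17.7 in cytoplasm 2. Miip had 0 and 108 counts, so it was at least 33.9-fold higher in cytoplasm 2 with a floor of 3 counts in cytoplasm 1, and Bmp1, a procollagen protease, at least 17.6-fold. Both cytoplasmic libraries held neuronal mRNA at high levels whatever their cell type label, as Snap25 showed.

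The difference between them went with the base composition of the transcripts. Across 7650 genes the log2 ratio of cytoplasm 1 to cytoplasm 2 had Spearman's rho = -0.76 with the GC content of the longest transcript. Genes were split into 5 equal bins of GC. In the bin with the lowest GC, up to 43.7%, the median ratio was 1.80 in favour of cytoplasm 1, and in the bin with the highest, from 55.2%, it was -1.69. Against the nuclei, rho was 0.31 for cytoplasm 1 alone and -0.39 for cytoplasm 2 alone. With both together it was -0.01, the 2 trends having opposite signs.

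The mitochondrial mRNAs, with a median GC of 38.1%, lie at the end that cytoplasm 1 favours. Offsets that remove each library's trend over transcript GC, added after this was seen, gave 437 genes that differed between the 2 cytoplasmic libraries, against 2288 without them. The offsets were estimated from these same counts and level the GC trend by design. The drop in differing genes was therefore partly set by the method, and what caused the trend was not tested. Under the offsets 2170 genes were higher and 2258 lower in nuclei. With the offsets 10 of 10 mitochondrial mRNAs and 54 of 55 ribosomal protein genes were lower in nuclei. The medians against cytoplasm 1 and 2 became -4.53 and -3.37 for the mitochondrial list, and -1.53 and -3.27 for the ribosomal list, where the gap remained. The relation to exon length then became alike in the 2 libraries, from -1.36 and -1.84 under 2 kb to 0.42 and 0.70 over 10 kb. Median GC itself went from 53.2% to 46.2% between these classes, so part of this was set by the method too.

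**Figure D5:**
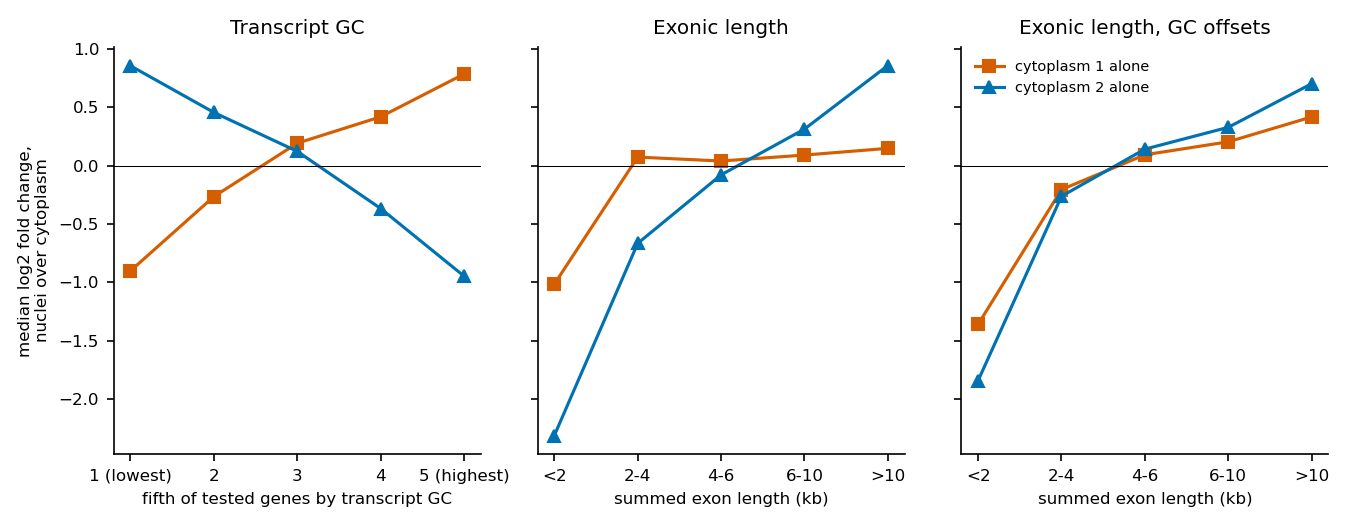
Median log2 fold change of the nuclei over cytoplasm 1 (squares) and cytoplasm 2 (triangles), on a shared y axis, by 5 equal bins of transcript GC content, by summed exon length, and by exon length with GC offsets. The lines cross in the first panel, from -0.90 and 0.85 in the lowest bin to 0.78 and -0.95 in the highest, and come together in the third. The offsets of the third panel were estimated from these same counts, so this was partly set by the method.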

How the data were processed

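The values are counts: the authors deposited 1 table of whole-number read counts per gene, with no normalization. Per the labels' protocols, RNA extraction was by Trizol with DNase and a Qiagen MinElute clean-up, and the library kit was NuGEN Ovation RNA-seq V2. Trimmomatic, Bowtie2, STAR, bedtools and edgeR are named in the submitters' processing notes, without versions or roles. Not given in the sources used here are the genome build, the annotation, the use of strand and whether introns were counted. No molecular identifiers are named, so floors of 3 counts cover counting error only. The table held 27501 gene identifiers and a GFP entry, and 26574 identifiers were found in GENCODE M21, which gave names, biotypes, positions on GRCm38, lengths and GC content. The 12 columns of sorted nuclei were not used.

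Totals were 147826 to 3274488 counts in nuclei, the highest but 1 being 313720, and 4461568 and 3885312 in cytoplasm, so low genes are less precise in nuclei. The design text describes each nuclear sample as 1 mouse. Replicate nuclei differed by more than sampling noise (chi-square per degree of freedom of at least 1.97), so none was merged. The 12 nuclei were set against the 2 cytoplasmic libraries with edgeR 4.0.16 in R 4.3.3: TMM scaling, filterByExpr with a minimum count of 10, the quasi-likelihood F test, and Benjamini-Hochberg adjustment over all tested genes at a threshold of 0.05. The standard error given after ± is the log2 fold change divided by the square root of F. Each cytoplasmic library alone, and the pair against each other, were tested with the spread of the nuclei. Shares of counts were compared with an exact permutation test in scipy 1.17.1. On simulated counts for 7728 genes the edgeR step was tested: it called 76 of 85 changes of 2 and 115 of 115 changes of 3 on the log2 scale, with 8 false calls. Apart from those changes, all simulated libraries shared the mean profile of the nuclei and a common spread, with no composition or GC difference. The cytoplasmic libraries had TMM factors of 0.64 and 0.80 and opposite GC trends. The simulation therefore checks the code and does not give the error rate of this comparison.

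Genes were named by rule: the lncRNAs, drivers and transgene of the study, the 10 largest changes in each direction among genes at 10 CPM or more whose groups did not overlap, up to 4 per direction from each of 37 gene lists with the most abundant members and exceptions, the largest per length class, and the largest between the cytoplasmic libraries. The 10 largest leave out identifiers without a symbol, Gm and Rik names, pseudogenes and members of near-identical families. Of all named genes the text describes a part. MicroRNA hosts that no list held and the class of nested genes were chosen after their values were seen. The comparison, its lists and its named genes were chosen with earlier results of these data known. Alternatives were RLE factors, no composition factor, no mitochondrial genes, other filters, DESeq2 1.42.0, thinned libraries, line and sex as covariates, matched or single lines, and leaving out each library. Nuclei of each sex alone, and offsets for transcript GC in 20 bins, were added after seeing the data.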

Additional observations from a re-analysis of the deposited data

Results flagged for a closer look

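In 140 genes the nuclei were above one cytoplasmic library and below the other, each past the threshold of edgeR's quasi-likelihood test with Benjamini-Hochberg adjustment: 66 were above cytoplasm 1 and below cytoplasm 2, and 74 the reverse. The difference between the cytoplasmic libraries was tested after subtracting from each the nuclei of its labelled line and sex. Genes picked for opposite signs already set the 2 libraries apart, so the test adds little to that choice. Each side of this test has 1 cytoplasmic library, whose spread is assumed to equal that of the nuclei, and the Y-linked counts of cytoplasm 1 go against the sex by which its nuclei were matched. All 10 genes below have values of opposite sign against the 2 cytoplasmic libraries, whether or not each passed alone, and are given as cytoplasm 1 minus cytoplasm 2 on the log2 scale with that subtraction.

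Of the genes higher in cytoplasm 1, Srsf7, Srsf3 and Luc7l2, all of the splicing machinery, differed by 3.24 (adjusted p = 0.029), 2.72 (adjusted p = 0.011) and 2.65 (adjusted p = 0.0078). The dendritic Map2 differed by 2.44 (adjusted p = 0.015) and the astrocyte transporter gene Slc1a2 by 1.67 (adjusted p = 0.038). Of the genes higher in cytoplasm 2, the haemoglobin gene Hba-a2 differed by -4.35 (adjusted p = 0.011), Grin1 differed by -4.05 (adjusted p = 0.0015), the granin gene Chga by -3.21 (adjusted p = 0.022) and the GFP entry by -2.63 (adjusted p = 0.01). Miip differed by -8.04 (adjusted p = 0.011), a fitted value that rests on 0 counts in cytoplasm 1 and is not a bound.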

How the results depend on the processing

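The counts of genes, 1595 higher and 2306 lower in nuclei, depended on scaling, filter and number of libraries. They were 2491 and 1460 without the composition factor, which moved the median of all genes by 0.55, 2617 and 4198 with no filter, and 1029 and 1292 with every library thinned to the shallowest. With fewer nuclei they were 491 and 965 (those matched for line and sex), 755 and 1414 (Snap25 line), 849 and 1373 (Aldh1L1 line), 563 and 1251 (Cnp line), and 1033 higher with males alone. Leaving out 1 library in turn gave 1476 to 1933 higher and 1967 to 2306 lower; where a cytoplasmic library was left out, the lone one is assumed to vary like the nuclei. The other settings, with DESeq2 at 1743 and 2280, stayed within 1.5 times. GC offsets, chosen after seeing the data, took the genes differing between the cytoplasmic libraries from 2288 to 437. These offsets were estimated from the same counts, so that drop was partly set by the method. Leaving out either cytoplasmic library gave share differences, nuclei minus cytoplasm in percentage points, of -5.70 to -0.333 for mitochondrial mRNAs, -2.70 to -0.249 for ribosomal proteins, -1.49 to -0.572 for the respiratory chain, -1.28 to -0.867 for synaptic vesicle genes and 4.69 to 10.99 for genes over 100 kb. Of 121 named genes 8 changed sign under some setting: Xist was -0.12 with males alone, and with a library left out Srsf7 ran from -2.57 to 0.37, Srsf3 from -1.79 to 0.38, Luc7l2 from -2.17 to 0.13, Map2 from -2.24 to 0.24, Chga from -2.26 to 1.21, Plagl1 from -4.12 to 0.76 and Hba-a2 from -3.07 to 0.051. With the matched nuclei 33 of the 121 kept their direction but no longer passed. The cause of these changes was not tested. Settings with fewer libraries or counts can also differ in line, in sex or in the genes tested, as with 5580 genes after thinning. No paired analysis was possible because no label ties a cytoplasmic library to the mouse or batch of any nuclei, and the groups share fewer than 2 replicate numbers; the fit matched for line and sex is no pairing of mice. In all but 1 nuclear library a count of 3 is 9.62 to 20.5 CPM, which limits what can be said of genes absent from a nuclear library.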

Other observations

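Some gene groups were measured beside those described above. Glutamatergic markers had 2 of 15 tested genes (13.3%) higher in nuclei and 7 (46.7%) lower, beside 20.6% and 29.8% of all genes. Their median log2 fold change of -0.17 became 0.27 without the composition factor. The higher ones encode receptor subunits. Grin2a, an NMDA receptor subunit, had 256, 349 and 485 CPM as the lowest, median and highest value in nuclei and 66.8 and 109 in cytoplasm 1 and 2 (2.04 ± 0.33, adjusted p = 3.0e-05, edgeR), and Gria2, an AMPA receptor subunit, had 569, 929 and 1278 and 347 and 152 (1.84 ± 0.39, adjusted p = 5.2e-04). The lower ones included Tbr1, a transcription factor gene of cortical neurons, which had 4.26, 19.3 and 54.7 CPM in nuclei and 257 and 76.6 in cytoplasm (-2.89 ± 0.44, adjusted p = 1.6e-05). For these 3 genes the nuclei and the cytoplasm did not overlap.

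Red cell genes had 4 of 5 tested members lower in nuclei, and none of the 4 passed against cytoplasm 1 alone. The haemoglobin gene Hba-a2 had 7.67, 24.8 and 85.7 CPM in nuclei, 30.4 in cytoplasm 1 and 253 in cytoplasm 2 (-2.15 ± 0.57, adjusted p = 0.0034), and its near-identical copy Hba-a1 cannot be told apart from it by short reads. The list's median was 0.22 against cytoplasm 1 and -2.38 against cytoplasm 2, and its summed share of counts was 0.0113% to 0.0785% in nuclei, 0.0148% in cytoplasm 1 and 0.105% in cytoplasm 2. Replication-dependent histone genes, whose mRNAs end without a poly(A) tail, had 3 of 12 (25%) lower and none higher. Over all genes 29.8% were lower and 20.6% higher. The median was 0.18 against cytoplasm 1 alone and -1.66 against cytoplasm 2 alone, and 9 of the 12 met the count minimum only through the nuclei. Hist1h4d had 30.7, 60.4 and 154 CPM in nuclei and 194 and 374 in cytoplasm (-1.93 ± 0.40, adjusted p = 4.0e-04).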
